A study of Mus musculus with 15 samples.

Results

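Eosinophils that stained for CD11c in the lungs of papain-treated mice were set against eosinophils from the lungs of untreated mice, by RNA sequencing of sorted cells. The comparison rests on 4 of the 15 libraries of the series, which were chosen by their labels: 2 libraries of CD11c+ eosinophils after papain and 2 of naive eosinophils. The 2 libraries of CD11c- eosinophils after papain served as a further reference, since they received the same treatment. All animals of these 6 libraries were of the C57BL6/J strain, with no genetic change named. Papain mice had been given 50 ug per mouse through the nose on each of 3 days, and naive mice had the treatment label "none". Eosinophils were gated as SiglecF-positive, Gr1-low cells without autofluorescence, and the labels split only the papain cells by CD11c. The labels do not say whether the 2 libraries of a group came from separate or pooled animals, so each p measures the spread between libraries, which may be technical.

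Eosinophils are granulocytes that mature in bone marrow under interleukin 5 and enter tissue along eotaxin gradients read by the receptor Ccr3. They store major basic protein, eosinophil peroxidase and ribonucleases in their granules and release ready-made cytokines such as interleukin 4. Papain is a plant cysteine protease that injures airway epithelium, which then releases interleukin 33 and sets off type 2 inflammation. CD11c is the integrin alpha X chain, encoded by Itgax, and is best known from dendritic cells and alveolar macrophages.

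Values are FPKM (fragments scaled by transcript length and by all fragments mapped) as rounded by the authors, so levels of genes can be compared per length, while read depth is not known. Log2 changes are differences of mean log2(FPKM + 1), given with their standard error (SE, n = 2 libraries per group). A gene was called at an adjusted p under 0.05 in a limma fit over all 15 libraries. The SE rests on a spread shared by all groups of the series, so basophil and natural helper cell libraries enter it. The summed values were 456063 and 503114 FPKM in CD11c+ papain libraries and 411415 and 378766 FPKM in naive libraries, and 12522 and 10597 genes were above 0 in CD11c+ libraries against 9995 and 10486 in naive libraries. Paired libraries of a group were less alike in the CD11c+ group: Pearson's r across genes on the log2 scale was 0.901 for CD11c+, 0.948 for CD11c- and 0.959 for naive libraries, as a description over genes that are not independent. The naive libraries stood apart from each other in genes of granulocyte precursors and dendritic cells. Epx, the peroxidase of eosinophil granules, was listed at 0 in both CD11c+ libraries and at 0 and 72 FPKM in naive libraries 1 and 2. The neutrophil granule genes Elane and Mpo were listed at 0 in both CD11c+ libraries and in naive library 1, and had 21 and 17 FPKM in naive library 2. Ccl22, a chemokine of dendritic cells, had 37 and 41 FPKM in CD11c+ libraries against 6 and 189 FPKM in naive libraries 1 and 2.

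The labelled cell type was checked against its marker genes, of which Ccr3, Siglec5, Prg2 and Ear6 were present in both CD11c+ and both naive libraries. Epx was listed at 0 in both CD11c+ libraries, as given above, and Prg3 and Il5ra were low there, as given below. Ccr3 had 124 and 151 FPKM in CD11c+ papain libraries, against 192 and 229 FPKM in naive libraries. Siglec5, the symbol used here for Siglec-F, had 76 and 64 FPKM in CD11c+ libraries and 63 and 66 FPKM in naive libraries. Siglec-F was part of the sort gate, so its gene is not a separate check of the labelled cell type. Siglec5 is also on the alveolar macrophage marker list used below. Prg2, which encodes major basic protein, had 585 and 653 FPKM in CD11c+ libraries against 86 and 1519 FPKM in naive libraries, and the ribonuclease gene Ear6 had 185 and 88 FPKM against 91 and 333 FPKM. In all basophil and natural helper cell libraries Ccr3 lay between 0 and 9 FPKM and Siglec5 between 0 and 8 FPKM. Itgax, the gene of the gated surface protein, had 186 and 165 FPKM in CD11c+ papain libraries, 109 and 185 FPKM in CD11c- papain libraries and 87 and 112 FPKM in naive libraries. The CD11c+ libraries lay above both naive libraries for Itgax, with a log2 change of 0.82 ± 0.78 that did not pass the test (adjusted p = 0.522), and overlapped the CD11c- libraries.

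Of 14257 genes tested, 1416 (9.93%) were called higher and 314 (2.2%) lower in CD11c+ papain eosinophils than in naive eosinophils. The share of calls that were higher was 81.8%, and it was 56.7% after median-ratio scaling, 51.2% after quantile normalization and 68.8% with small RNA genes left out. The median log2 change over all tested genes was 0.34, and changes of gene lists are to be read beside this shift. Counts of calls in each list below are likewise to be read beside the shares over all genes, 9.93% higher and 2.2% lower. How many genes passed turned on single libraries: 697 were called without CD11c+ library 2, 371 without naive library 1 and 674 without naive library 2. Of the main calls, 265 higher and 48 lower genes were also called in each of the 4 fits that left out 1 of the compared libraries, and these are described as held below. Of these 313 genes, 308 were also called with only the 6 eosinophil libraries in the fit, but 227 with only the 4 compared libraries, and a named gene among the other 86 has that adjusted p beside it. Among the called genes, 500 of the higher ones were listed at 0 in both naive libraries and 47 of the lower ones at 0 in both CD11c+ libraries. Their fitted changes depend on the added constant, so none is read as a fold.

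**Figure D1:**
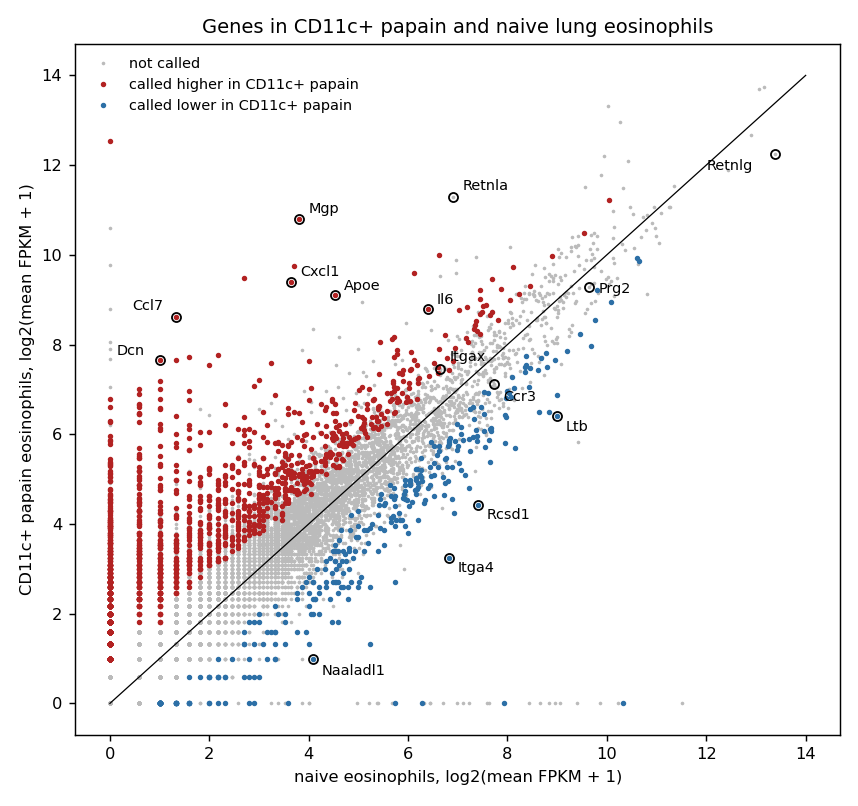
Log2 of the mean FPKM plus 1 of each tested gene in CD11c+ papain eosinophils (vertical) against naive eosinophils (horizontal), n = 2 libraries each, 1 point per gene, with genes called higher, genes called lower and the remaining genes in separate colours and selected genes labelled. Ccl7, Mgp and Dcn lie far above the diagonal of equal levels and Itga4 and Rcsd1 below it, while Ccr3 and Itgax lie near it.

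The largest rises fell to 3 chemokines and 9 genes of extracellular matrix and its binding proteins. Ccl7, a chemokine that draws monocytes and eosinophils, had 390 and 392 FPKM in CD11c+ papain libraries against 1 and 2 FPKM in naive libraries (log2 change 7.32 ± 0.43, adjusted p = 0.000114). Ccl2, the main ligand of the monocyte receptor Ccr2, had 654 and 766 FPKM against 3 and 8 FPKM (6.88 ± 0.80, adjusted p = 0.00175). Ccl11, the eotaxin that Ccr3 reads, had 77 and 79 FPKM in CD11c+ libraries and was listed at 0 in both naive libraries (adjusted p = 0.0114). For all 3 chemokines the groups were far apart, yet the call of Ccl11 was lost without CD11c+ library 2 (adjusted p = 0.0658), naive library 1 (0.0764) or naive library 2 (0.0569). The other 11 of these 12 genes were held.

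The matrix genes among these 12 started from almost nothing in naive eosinophils. Mgp, an inhibitor of calcification, had 1813 and 1769 FPKM in CD11c+ papain libraries against 6 and 20 FPKM in naive libraries (log2 change 7.21 ± 1.05, adjusted p = 0.00428). The small proteoglycan decorin (Dcn) had 200 FPKM in each CD11c+ library against 1 FPKM in each naive library (6.65 ± 0.55, adjusted p = 0.000506), and Sparc, a collagen-binding glycoprotein, had 213 and 187 FPKM against 1 and 2 FPKM (6.36 ± 0.52, adjusted p = 0.000506). Both groups were tight for these genes. Elastin (Eln) with 118 and 100 FPKM and the type III collagen gene Col3a1 with 105 and 89 FPKM in CD11c+ libraries were listed at 0 in both naive libraries (adjusted p = 0.00319 and 0.00205). Igfbp7, Dpt, Bgn and Clec3b had 107 to 214 FPKM in CD11c+ libraries against 0 to 4 FPKM in naive libraries, with adjusted p between 0.000506 and 0.00169, and Igfbp7 gave 0.067 when only the libraries compared were fitted.

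These matrix genes are markers of fibroblasts or are expressed by them, and most of the fibroblast list rose, with 1 member below 0. Mgp, Dcn, Col3a1, Bgn and Sparc are themselves members of that list. Of its 12 members, all tested, 11 were called higher against a background of 9.93%, 9 of them held, with a median log2 change of 6.03. The summed level of the list was 2964 and 2837 FPKM in CD11c+ papain libraries, 1442 and 1139 FPKM in CD11c- papain libraries and 10 and 35 FPKM in naive libraries. Mgp, given above, made up most of the CD11c+ sums. Epithelial markers had 6 of 16 called higher, with a median log2 change of 2.94. They summed to 10536 and 8785 FPKM in CD11c+ libraries, 7021 and 9615 FPKM in CD11c- libraries and 784 and 1850 FPKM in naive libraries. Scgb1a1 alone made up most of the papain sums, with 8503 and 7483 FPKM in CD11c+ and 5044 and 8407 FPKM in CD11c- libraries. The median level of the 16 members was 45 and 27 FPKM in CD11c+, 53.5 and 20 FPKM in CD11c- and 1 and 3 FPKM in naive libraries. The surfactant protein gene Sftpa1 had 84 and 61 FPKM in CD11c+ libraries against 1 and 3 FPKM in naive libraries (log2 change 4.68 ± 0.63, adjusted p = 0.00274), and was the only epithelial call held. Only 1 epithelial call was made without naive library 1, 3 without CD11c+ library 1 or naive library 2 and 2 without CD11c+ library 2. Endothelial markers had 4 of 12 called higher (median 1.78), none of them held, and only 1 without either CD11c+ library. In such bulk libraries a change in the number of cells of a type and a change in RNA per cell cannot be told apart, and the part of these cells in the other results was not tested.

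Among the leukocyte marker lists, that of monocytes and macrophages had the most calls, with 6 of 19 called higher against a background of 9.93% (median log2 change 1.47). Its members summed to 2683 and 2485 FPKM in CD11c+ papain libraries, 1041 and 806 FPKM in CD11c- libraries and 873 and 996 FPKM in naive libraries. Apoe, a lipid carrier made by macrophages, had 569 and 523 FPKM in CD11c+ libraries, 95 and 151 FPKM in CD11c- libraries and 24 and 20 FPKM in naive libraries (4.58 ± 0.60 against naive, adjusted p = 0.00251), and its call was the one held. The complement gene C1qb had 70 and 98 FPKM in CD11c+ libraries, 7 FPKM in each CD11c- library and 0 and 3 FPKM in naive libraries. Its adjusted p of 0.0387 became 0.0813 without CD11c+ library 1, 0.153 without CD11c+ library 2, 0.222 without naive library 1 and 0.074 without naive library 2. Alveolar macrophage markers had 2 of 16 called higher (Fabp4 and Fabp5, both lipid chaperones, neither held) and summed to 1449 and 1632 FPKM in CD11c+ libraries, 678 and 574 FPKM in CD11c- libraries and 336 and 478 FPKM in naive libraries.

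T cell markers had 3 of 13 called higher (Lck, Lat and Cd4, none held) and summed to 131 and 175 FPKM in CD11c+ papain libraries, 27 and 140 FPKM in CD11c- libraries and 5 and 2 FPKM in naive libraries. Natural helper cell markers had 3 of 14 called higher (Il5, Rora and Thy1) and summed to 244 and 258 FPKM in CD11c+ libraries, 202 and 219 FPKM in CD11c- libraries and 80 and 120 FPKM in naive libraries. Neutrophil markers had 2 of 18 called higher (Cxcr2 and Stfa2), a share near the background of 9.93%. The median log2 change of these markers was 1.08, against 0.34 over all genes. Their sums were 12877 and 14709 FPKM in CD11c+ libraries against 16982 and 9146 FPKM in naive libraries, and Retnlg made up most of the naive sums. Neither Retnlg, with both CD11c+ libraries below the naive ones, nor S100a8, with both above, passed the test (values below). Dendritic cell markers had 2 of 18 called higher, both low (Ffar2 and Siglech), again a share near the background. This list summed to 1436 and 1693 FPKM in CD11c+ libraries against 238 and 2124 FPKM in naive libraries. Both calls among 8 mast cell markers were lower and held. Kit, the stem cell factor receptor, had 4 and 5 FPKM in CD11c+ libraries against 27 and 19 FPKM in naive libraries (log2 change -2.11 ± 0.31, adjusted p = 0.00445), and the amine transporter gene Slc18a2 had 5 FPKM in each CD11c+ library against 24 and 26 FPKM (-2.11 ± 0.25, adjusted p = 0.00196). The call of Kit was lost with only the libraries compared (0.0507) or only the 6 eosinophil libraries (0.0534) in the fit. B cell markers summed to 175 and 198 FPKM in CD11c+ libraries against 84 and 63 FPKM in naive libraries, NK cell markers to 46 and 40 against 23 and 12, basophil markers to 425 and 387 against 886 and 498, and haemoglobin and other red cell genes to 873 and 802 against 1282 and 360. No member of these 4 lists was called by limma.

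**Figure D2:**
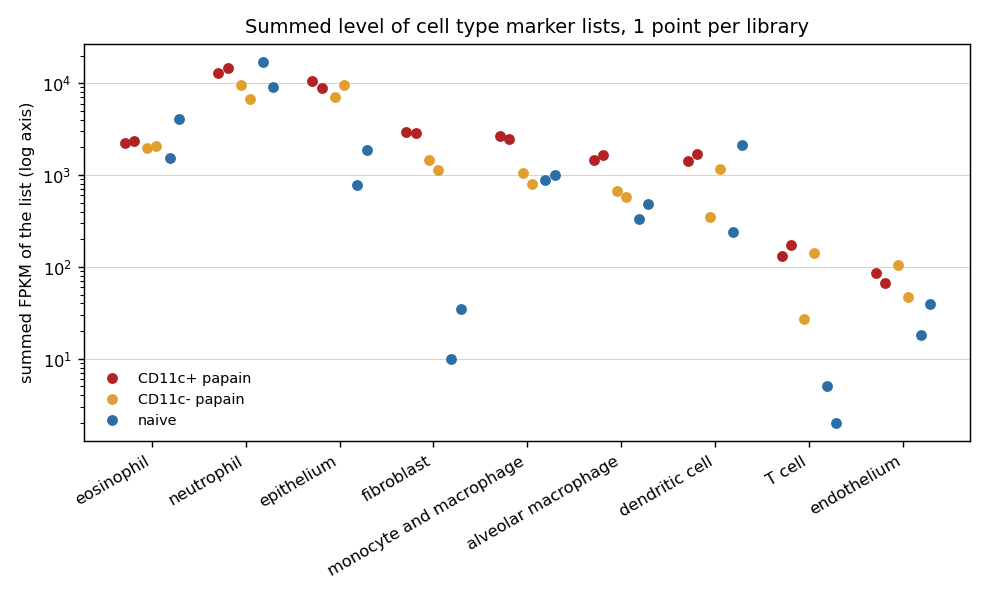
Summed FPKM of the marker lists of selected cell types (log axis) in each CD11c+ papain, CD11c- papain and naive eosinophil library, shown as 1 point per library. Fibroblast markers stand at 2964 and 2837 FPKM in CD11c+ and at 10 and 35 FPKM in naive libraries, whereas the eosinophil sums of 2246 and 2335 FPKM in CD11c+ libraries lie between the naive sums of 1529 and 4033 FPKM.

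The largest falls held adhesion, signalling and metabolic genes. Itga4, the integrin alpha 4 chain with which eosinophils bind the vessel wall, had 8 and 9 FPKM in CD11c+ papain libraries, 37 and 26 FPKM in CD11c- papain libraries and 105 and 119 FPKM in naive libraries (log2 change -3.57 ± 0.51 against naive, adjusted p = 0.00405). The groups did not overlap and the CD11c- libraries lay between them. Rcsd1, a binding partner of actin capping protein, had 19 and 22 FPKM in CD11c+ libraries against 187 and 149 FPKM in naive libraries (-2.97 ± 0.36, adjusted p = 0.00207), and Fam65b, an inhibitor of RhoA, had 19 and 17 FPKM against 113 and 128 FPKM (-2.68 ± 0.34, adjusted p = 0.00233). Naaladl1, a peptidase gene, had 1 FPKM in each CD11c+ library against 17 and 15 FPKM in naive libraries (-3.08 ± 0.16, adjusted p = 6.93e-05). In all basophil and natural helper cell libraries Naaladl1 was listed at 0.

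The further held falls were Tbc1d2b, a Rab GTPase-activating protein (7 and 4 FPKM in CD11c+ papain libraries against 60 and 44 FPKM in naive libraries), the sulfotransferase gene Chst13 (7 and 3 against 37 and 36 FPKM) and the adhesion molecule L1cam (3 and 2 against 20 and 22 FPKM). Their log2 changes were -3.05 ± 0.35, -2.73 ± 0.41 and -2.67 ± 0.28, with adjusted p of 0.00163, 0.00483 and 0.00116, and Chst13 gave 0.0728 when only the libraries compared were fitted. Prg3, a homologue of major basic protein, had 3 and 0 FPKM in CD11c+ libraries against 10 and 63 FPKM in naive libraries (-3.73 ± 0.81, adjusted p = 0.0224), but not without CD11c+ library 2 (0.131) or naive library 2 (0.0893). The lysophospholipid receptor Gpr55 had 5 and 0 FPKM in CD11c+ libraries against 22 and 24 FPKM in naive libraries, and the molybdenum cofactor gene Mocs1 had 4 and 0 against 14 and 11 FPKM (adjusted p = 0.0431 and 0.0412). Without CD11c+ library 2, naive library 1 or naive library 2 the adjusted p was 0.203, 0.179 and 0.143 for Gpr55 and 0.152, 0.202 and 0.115 for Mocs1. Cd244, an immune receptor of the SLAM family (8 and 2 FPKM in CD11c+ libraries against 24 and 38 FPKM in naive libraries, adjusted p = 0.0147), gave 0.0621, 0.061 and 0.0834 in those 3 fits. The adaptor gene Hsh2d (3 and 0 against 17 and 13 FPKM, adjusted p = 0.0125) gave 0.0928 without naive library 1 and 0.0513 without naive library 2. Chosen after its values were seen, Ltb, which encodes the membrane cytokine lymphotoxin beta, was also held, with 89 and 78 FPKM in CD11c+ libraries, 133 and 105 FPKM in CD11c- libraries and 620 and 393 FPKM in naive libraries (-2.55 ± 0.26 against naive, adjusted p = 0.00108).

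**Figure D3:**
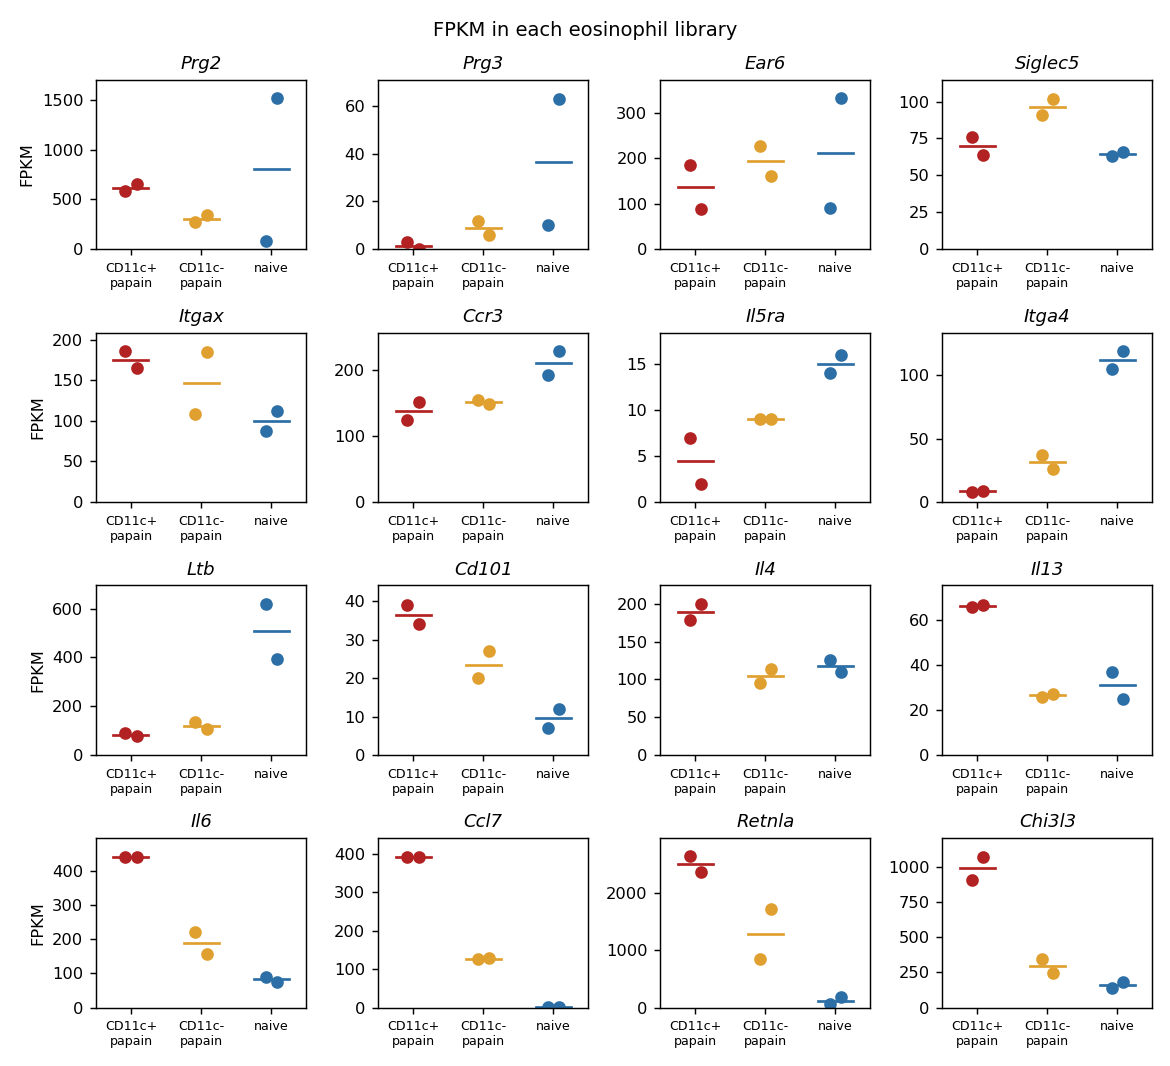
FPKM (linear axes from 0) of selected genes in each of the 6 eosinophil libraries, 1 panel per gene, with CD11c+ papain, CD11c- papain and naive points from left to right and a line at each group's mean. For Ccl7 the CD11c+ libraries at 390 and 392 FPKM lie above the CD11c- libraries at 126 and 129 FPKM and the naive libraries at 1 and 2 FPKM, and for Itga4 the order is the reverse.

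Of 16 genes on the eosinophil marker list, all tested and Itgax among them, 11 had a fitted value below and 5 above that of naive cells. The 2 calls (Prg3 and Il5ra) were lower, and the median log2 change was -0.48, against 0.34 over all genes. The list's median was -1.31 without naive library 1 and 0.13 without naive library 2, or 1.61 and 0.32 below the median of all genes in those fits. Il5ra, the specific chain of the interleukin 5 receptor, had 7 and 2 FPKM in CD11c+ papain libraries, 9 FPKM in each CD11c- library and 14 and 16 FPKM in naive libraries (-1.70 ± 0.47 against naive, adjusted p = 0.0492). Its adjusted p was 0.205 without CD11c+ library 2, 0.179 without naive library 1 and 0.167 without naive library 2. Csf2rb, the signalling chain shared by the receptors for interleukin 3, interleukin 5 and GM-CSF, had 268 and 278 FPKM in CD11c+ libraries against 312 and 375 FPKM in naive libraries (-0.32 ± 0.32, adjusted p = 0.534). Among 10 granule protein genes tested the single call was Prg3. Ear1 and Ear6 belong to a family of near-identical copies, between which reads may be split, so their values are uncertain. Prg2 gave 0.77 ± 1.23 (adjusted p = 0.737), with the CD11c+ libraries inside the naive range. Retnlg, a resistin-like secreted protein of granulocytes, had 5097 and 4662 FPKM in CD11c+ libraries against 13759 and 7600 FPKM in naive libraries (-1.07 ± 0.85, adjusted p = 0.447). Its mean over the naive libraries was the highest, with small RNA genes and gene models without a name passed over. In naive library 2 it stood below Fth1 (9040 FPKM) and Tmsb4x (8599 FPKM).

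Of 20 type 2 and growth factor cytokine genes tested, 6 were called higher, with a median log2 change of 2.12 against 0.34 over all genes, and 5 were held. Lif, a cytokine of the interleukin 6 family, had 63 and 56 FPKM in CD11c+ papain libraries, 35 and 23 FPKM in CD11c- papain libraries and 2 FPKM in each naive library (4.33 ± 0.33 against naive, adjusted p = 0.000485). Il6 had 441 and 440 FPKM in CD11c+ libraries, 222 and 156 FPKM in CD11c- libraries and 91 and 75 FPKM in naive libraries (2.40 ± 0.31, adjusted p = 0.00233). For both genes the 3 groups did not overlap and stood in that order. Il5, the eosinophil growth factor, had 16 and 14 FPKM in CD11c+ libraries and 25 and 15 FPKM in CD11c- libraries and was listed at 0 in both naive libraries (adjusted p = 0.00368). It had 2379 and 2350 FPKM in papain natural helper cells. The marker list of those cells summed higher in papain than in naive eosinophil libraries, as given above. That list includes Il5 itself, with Il13 and Il1rl1, so its sum is not separate from Il5, and the part of natural helper cells was not tested. The alarmin Il33 had 13 and 7 FPKM in CD11c+ libraries and was listed at 0 in both naive libraries (adjusted p = 0.00308), and the EGF receptor ligand Ereg had 11 and 7 FPKM against 1 and 0 FPKM (adjusted p = 0.00507, or 0.0869 when only the libraries compared were fitted).

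The sixth cytokine call was Csf3, the neutrophil growth factor G-CSF, with 15 and 27 FPKM in CD11c+ papain libraries against 1 and 0 FPKM in naive libraries (log2 change 3.90 ± 0.95, adjusted p = 0.0327). It was lost without each of the 4 libraries, at adjusted p of 0.0572 and 0.15 without CD11c+ libraries 1 and 2 and 0.11 and 0.142 without naive libraries 1 and 2. The 2 signature cytokines of type 2 immunity did not pass. Il4 had 179 and 200 FPKM in CD11c+ libraries, 95 and 114 FPKM in CD11c- libraries and 126 and 110 FPKM in naive libraries (0.68 ± 0.40 against naive, adjusted p = 0.312). Il13 had 66 and 67 FPKM in CD11c+ libraries, 26 and 27 FPKM in CD11c- libraries and 37 and 25 FPKM in naive libraries (1.10 ± 0.55, adjusted p = 0.229). For both genes the CD11c+ libraries were the highest of the 6. Lif, Il6 and Il33 are also made by stromal and epithelial cells, whose marker sums moved with them, and their part was not tested.

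Of 23 chemokine genes tested, 7 were called higher, with a median log2 change of 1.01, and 4 were held. Besides Ccl2 and Ccl7, the held genes were Cxcl1 and Cxcl15, ligands that attract neutrophils. Cxcl1 had 709 and 643 FPKM in CD11c+ papain libraries, 345 and 309 FPKM in CD11c- libraries and 16 and 7 FPKM in naive libraries (5.86 ± 0.62 against naive, adjusted p = 0.00118). Cxcl15, a chemokine of lung epithelium, had 36 and 34 FPKM in CD11c+ libraries against 0 and 1 FPKM in naive libraries (4.67 ± 0.57, adjusted p = 0.00207). Ccl8 and Ccl24, listed at 0 in both naive libraries, had 39 and 28 FPKM and 11 and 20 FPKM in CD11c+ libraries (adjusted p = 0.0168 and 0.0283). In the fits without CD11c+ library 1, CD11c+ library 2, naive library 1 and naive library 2 the adjusted p was 0.0538, 0.0745, 0.1 and 0.0729 for Ccl8 and 0.0506, 0.136, 0.143 and 0.103 for Ccl24. The marker sums of fibroblasts, epithelium and macrophages given above moved with these chemokines, and their part was not tested. The 3 chemokines most abundant in naive eosinophils were not called. Ccl6 had 2126 and 2189 FPKM in CD11c+ libraries against 2781 and 2071 FPKM in naive libraries, Cxcl2 had 2878 and 2896 FPKM against 1779 and 772 FPKM, and Ccl3 had 1253 and 1505 FPKM against 790 and 585 FPKM.

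Of 36 cytokine receptor genes tested, 6 were called higher and 3 lower (median log2 change 0.42), against backgrounds of 9.93% and 2.2%. Il1r1, the signalling receptor for interleukin 1, had 14 and 21 FPKM in CD11c+ papain libraries and 9 and 6 FPKM in CD11c- libraries and was listed at 0 in both naive libraries (adjusted p = 0.000579). Osmr, the oncostatin M receptor, had 15 and 16 FPKM in CD11c+ libraries and was likewise listed at 0 in both naive libraries (adjusted p = 0.00204). Both were held, and both are also expressed by the fibroblasts whose markers rose. Il4ra, the receptor chain shared by interleukin 4 and interleukin 13, had 47 and 43 FPKM in CD11c+ libraries, 46 and 43 FPKM in CD11c- libraries and 22 and 19 FPKM in naive libraries (1.10 ± 0.29 against naive, adjusted p = 0.0414). The papain libraries of both gates lay above both naive libraries, but the call was lost without each compared library (adjusted p from 0.103 without CD11c+ library 1, through 0.133 without CD11c+ library 2 and 0.146 without naive library 1, to 0.159 without naive library 2). The common gamma chain Il2rg had 95 and 66 FPKM in CD11c+ libraries against 165 and 152 FPKM in naive libraries (-0.99 ± 0.23, adjusted p = 0.0263), with 0.133 without CD11c+ library 2, 0.15 without naive library 1 and 0.0825 without naive library 2. Il1rl1, the receptor for interleukin 33, had 84 and 70 FPKM in CD11c+ libraries against 38 and 72 FPKM in naive libraries and did not pass (0.54 ± 0.28, adjusted p = 0.24).

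Of 30 chemoattractant receptor genes tested, the 3 calls were higher (Cxcr2, S1pr1 and Ffar2; median log2 change 0.65), a share near the background of 9.93%. Cxcr2, a receptor for Cxcl1 that is best known from neutrophils, had 56 and 70 FPKM in CD11c+ papain libraries, 28 and 37 FPKM in CD11c- libraries and 18 and 11 FPKM in naive libraries (2.07 ± 0.34 against naive, adjusted p = 0.0078). S1pr1, the sphingosine 1-phosphate receptor that guides exit from tissue, had 21 and 26 FPKM in CD11c+ libraries against 2 and 3 FPKM in naive libraries (2.81 ± 0.53, adjusted p = 0.0123). The groups did not overlap for either gene, but Cxcr2 was lost without CD11c+ library 2 (adjusted p = 0.0535) and naive library 2 (0.0514), and S1pr1 without CD11c+ library 2 (0.0767) and naive library 1 (0.0931). Ffar2 was low, at 6 and 9 FPKM in CD11c+ libraries against 2 FPKM in each naive library, and was lost without CD11c+ library 2 (0.129), naive library 1 (0.127) and naive library 2 (0.0908). S100a8, a neutrophil marker, had 3975 and 5489 FPKM in CD11c+ libraries against 1417 and 560 FPKM in naive libraries (2.39 ± 1.21, adjusted p = 0.238). Ccr3 gave -0.61 ± 0.44 (adjusted p = 0.404).

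Cd101, an inhibitory glycoprotein known in mice as a marker of inflammatory lung eosinophils, had 39 and 34 FPKM in CD11c+ papain libraries, 20 and 27 FPKM in CD11c- libraries and 7 and 12 FPKM in naive libraries (log2 change 1.88 ± 0.29 against naive, adjusted p = 0.00524), and was held, with 0.0793 when only the libraries compared were fitted. Cd101 was 1 of 3 higher calls among 20 activation and costimulation genes, beside Sema4a and Slc3a2, and Cd274 and Fas were lower (median 0.24). The backgrounds are 9.93% higher and 2.2% lower. Cd274, the ligand PD-L1, had 30 and 26 FPKM in CD11c+ libraries against 100 and 72 FPKM in naive libraries (-1.57 ± 0.41, adjusted p = 0.04), and was lost without CD11c+ library 1 (0.0765), CD11c+ library 2 (0.16), naive library 1 (0.22) and naive library 2 (0.0872). Of that list only Cd101 was held.

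Among 35 Siglec, Pir, CD300 and other paired receptors, 3 were called higher and 3 lower (median log2 change -0.23), against backgrounds of 9.93% and 2.2%. Cd200r1, an inhibitory receptor for CD200, had 35 and 41 FPKM in CD11c+ papain libraries, 28 and 33 FPKM in CD11c- libraries and 3 and 6 FPKM in naive libraries (2.88 ± 0.28 against naive, adjusted p = 0.00105). Clec5a, an activating receptor that signals through DAP12, had 21 and 32 FPKM in CD11c+ libraries, 6 and 7 FPKM in CD11c- libraries and 4 and 3 FPKM in naive libraries (2.59 ± 0.38, adjusted p = 0.00455). Both calls were held, though that of Cd200r1 gave 0.054 when only the libraries compared were fitted, and the CD11c- libraries stood near the CD11c+ ones for Cd200r1 and near the naive ones for Clec5a. The lower calls were Cd300a, Pira1 and Pira2, of which the Pira genes are near-identical copies and their values uncertain. Cd300a, an inhibitory receptor, had 45 and 46 FPKM in CD11c+ libraries against 97 and 93 FPKM in naive libraries (-1.05 ± 0.27, adjusted p = 0.0404), and was lost without CD11c+ library 1 (0.0879), CD11c+ library 2 (0.133), naive library 1 (0.189) and naive library 2 (0.124). The remaining higher call, Cd200r4, was low at 10 and 9 FPKM against 2 and 4 FPKM.

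Of 17 integrin and adhesion genes, Vcam1 was called higher and Itga4 and Itgb7 lower (median log2 change -0.20). Itgb7, a beta chain that pairs with Itga4, had 29 FPKM in each CD11c+ papain library, 42 and 39 FPKM in CD11c- libraries and 117 and 94 FPKM in naive libraries (-1.82 ± 0.28 against naive, adjusted p = 0.00525), and 0.0536 without naive library 1. Itgb1, the other partner of Itga4, had 71 and 54 FPKM in CD11c+ libraries against 43 and 66 FPKM in naive libraries (0.21 ± 0.29, adjusted p = 0.668). Vcam1, the vessel wall ligand of these integrins and also a gene of stromal cells, had 72 and 94 FPKM in CD11c+ libraries against 3 and 8 FPKM in naive libraries (3.79 ± 0.95, adjusted p = 0.0352). That call was lost without CD11c+ library 1 (0.0732), CD11c+ library 2 (0.145), naive library 1 (0.205) and naive library 2 (0.0766). Itgam, the alpha chain of CD11b, had 239 and 242 FPKM in CD11c+ libraries against 271 and 360 FPKM in naive libraries (-0.38 ± 0.29, adjusted p = 0.434).

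No call among genes known to respond to interleukin 4 and interleukin 13 was held, and most calls over all genes were not held either. Of 24 such genes tested, 7 were called higher (median log2 change 1.03), and all 7 calls were lost without CD11c+ library 2 and without naive library 1. Arg1, the arginase of type 2 macrophages, had 25 and 57 FPKM in CD11c+ papain libraries and 8 FPKM in each CD11c- library and was listed at 0 in both naive libraries (adjusted p = 0.0139), with 0.093 without CD11c+ library 2, 0.0877 without naive library 1 and 0.065 without naive library 2. Retnla, a resistin-like protein of type 2 inflammation, had 2635 and 2367 FPKM in CD11c+ libraries, 853 and 1725 FPKM in CD11c- libraries and 60 and 179 FPKM in naive libraries (4.58 ± 1.57 against naive, adjusted p = 0.0892). The papain libraries of both gates lay above both naive libraries for Retnla, but the change did not pass in the main fit. It passed in 4 of 18 alternative fits, with a lowest adjusted p of 0.033. The SE of Retnla also takes in other cells, such as naive basophils at 126 and 1 FPKM. Chi3l3, the chitinase-like protein Ym1, had 902 and 1072 FPKM in CD11c+ libraries against 143 and 185 FPKM in naive libraries (2.59 ± 1.99, adjusted p = 0.432). The macrophage marker sums given above moved with these genes, and their part was not tested. Of 25 STAT5 and cytokine feedback genes the 3 calls were higher (Socs2, Myc and Bcl6; median 0.48), a share near the background of 9.93%. Socs2, a feedback inhibitor of cytokine signalling, had 35 and 38 FPKM in CD11c+ libraries, 35 and 24 FPKM in CD11c- libraries and 9 and 7 FPKM in naive libraries (2.07 ± 0.24, adjusted p = 0.00188) and was held. Stat6, the transcription factor that carries the interleukin 4 signal, was lower, with 72 and 62 FPKM in CD11c+ libraries, 84 and 76 FPKM in CD11c- libraries and 183 and 144 FPKM in naive libraries (-1.27 ± 0.15, adjusted p = 0.002), and was held, with 0.0633 when only the libraries compared were fitted.

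Genes of innate sensing and NF-kappaB feedback were mostly on the lower side. Of 32 NF-kappaB feedback and inflammatory genes, 2 were called higher (Ptgs2 and Plaur) and 6 lower (median log2 change -0.37, against 0.34 over all genes), against backgrounds of 9.93% and 2.2%. Slc2a6, a glucose transporter family member, had 26 and 22 FPKM in CD11c+ papain libraries, 27 and 17 FPKM in CD11c- libraries and 122 and 88 FPKM in naive libraries (-2.07 ± 0.27 against naive, adjusted p = 0.00257) and was the call held. Nfkbie, an inhibitor of NF-kappaB, had 28 and 21 FPKM in CD11c+ libraries against 83 and 57 FPKM in naive libraries (-1.47 ± 0.26, adjusted p = 0.00975), and the ribonuclease gene Zc3h12a, which degrades cytokine transcripts, had 64 and 62 FPKM against 130 and 136 FPKM (-1.07 ± 0.20, adjusted p = 0.0133). Nfkbie was lost without CD11c+ library 2 (0.0651) and naive library 1 (0.0797), and Zc3h12a without CD11c+ library 2 (0.0691), naive library 1 (0.0774) and naive library 2 (0.0668). Irg1, which makes itaconate, had 93 and 86 FPKM in CD11c+ libraries against 464 and 325 FPKM in naive libraries (-2.11 ± 0.55, adjusted p = 0.0411), with 0.0871 and 0.154 without CD11c+ libraries 1 and 2 and 0.216 and 0.0968 without naive libraries 1 and 2. The lower side of this list numbered 1 call without CD11c+ library 2 or naive library 1 and 3 without naive library 2.

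All 4 calls among 28 Toll-like receptor and inflammasome genes were lower (Tlr9, Irak3, Nod1 and Casp1; median log2 change -0.23), against a background of 2.2% lower. Nod1, a cytosolic sensor of peptidoglycan, had 5 FPKM in each CD11c+ papain library, 10 and 7 FPKM in CD11c- libraries and 30 and 23 FPKM in naive libraries (-2.18 ± 0.33 against naive, adjusted p = 0.00477), and 0.0529 without naive library 1. Casp1, the inflammasome protease, had 7 and 10 FPKM in CD11c+ libraries against 28 and 29 FPKM in naive libraries (-1.65 ± 0.37, adjusted p = 0.0259), with 0.0813 and 0.0679 without CD11c+ libraries 1 and 2 and 0.129 and 0.0982 without naive libraries 1 and 2. Of 29 Bcl2 family and apoptosis genes, Bok was called higher at 3 FPKM in each CD11c+ library, and Pmaip1, Casp1 and Fas were lower (median 0.10). The death receptor Fas had 217 and 182 FPKM in CD11c+ libraries, 244 and 183 FPKM in CD11c- libraries and 560 and 432 FPKM in naive libraries (-1.30 ± 0.30, adjusted p = 0.0274), with 0.133 without CD11c+ library 2, 0.177 without naive library 1 and 0.0655 without naive library 2. The calls of the apoptosis list were all lost without CD11c+ library 2, naive library 1 or naive library 2. Among 22 NADPH oxidase and antimicrobial genes, the thiol reductase gene Txn1 was called higher and 2 genes lower (median -0.32). Txn1 had 344 and 389 FPKM in CD11c+ libraries against 175 and 153 FPKM in naive libraries (1.16 ± 0.18, adjusted p = 0.00614) and was held.

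**Figure D4:**
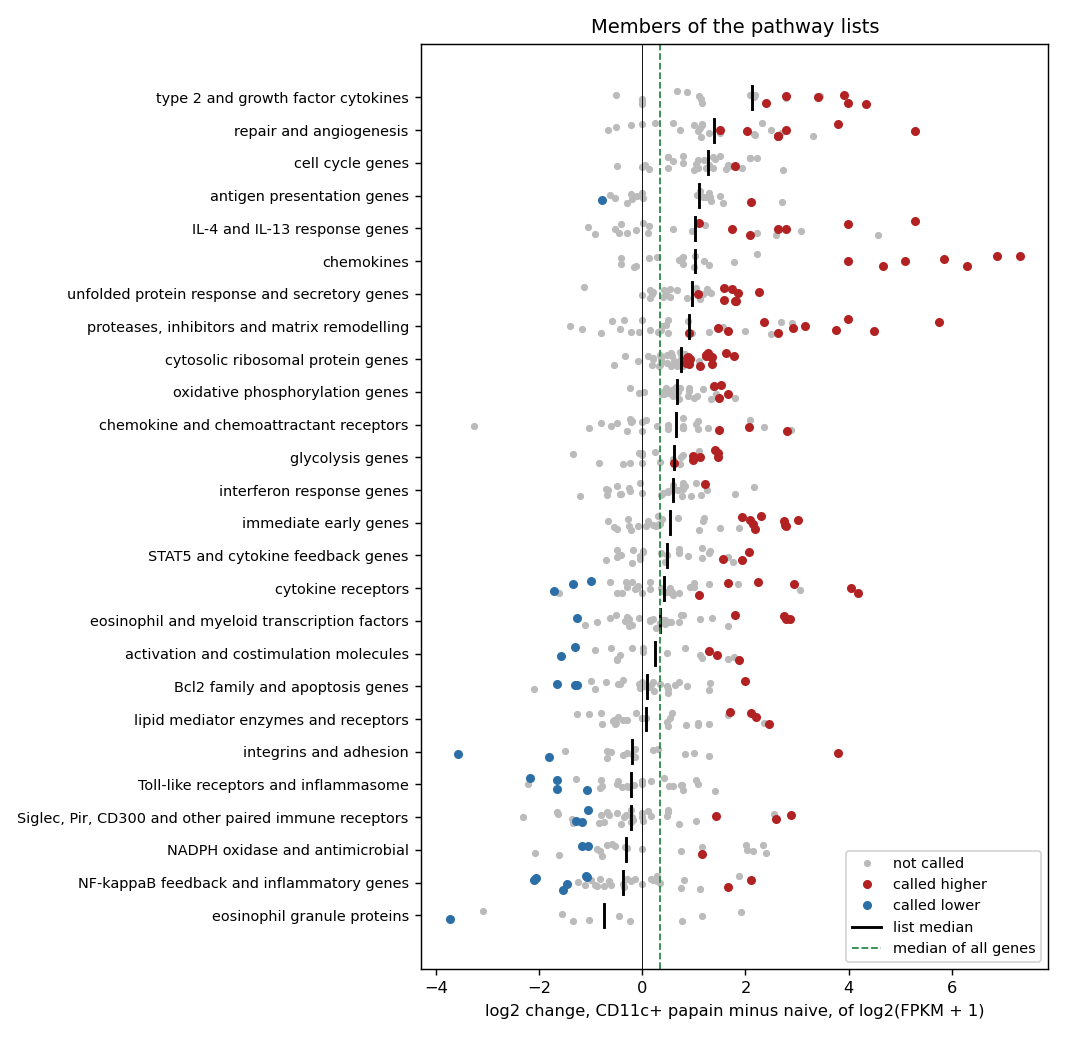
Fitted log2 change of each tested member of the gene lists, CD11c+ papain over naive eosinophils, 1 point per gene, coloured by call, with the list medians (black bars) and the median of all genes (0.34, dashed line) marked; changes of genes listed at 0 in naive libraries depend on the added constant. The medians of the cytokine list (2.12), the repair list (1.4) and the cell cycle list (1.27) lie to the right, and those of the granule list (-0.74) and the NF-kappaB list (-0.37) to the left.

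Immediate early genes, whose transcripts appear within minutes of stimulation, had 9 of 30 called higher (median log2 change 0.54). Maff, a small Maf transcription factor, had 105 and 86 FPKM in CD11c+ papain libraries, 57 and 43 FPKM in CD11c- libraries and 9 and 13 FPKM in naive libraries (3.02 ± 0.40 against naive, adjusted p = 0.00273) and was the call held. Jun, a component of AP-1, had 97 and 80 FPKM in CD11c+ libraries against 8 and 18 FPKM in naive libraries (2.77 ± 0.50, adjusted p = 0.0107), with 0.0508 without CD11c+ library 2 and 0.0852 without naive library 1. The list had 7 calls higher without CD11c+ library 1 or naive library 2 but only 2 without CD11c+ library 2 or naive library 1. Of 31 eosinophil and myeloid transcription factors, 4 were called higher and Stat6 lower (median 0.35), shares near the backgrounds of 9.93% and 2.2%. Cebpd, a C/EBP factor of inflammation, had 35 and 29 FPKM in CD11c+ libraries, 22 and 17 FPKM in CD11c- libraries and 3 and 5 FPKM in naive libraries (2.75 ± 0.39, adjusted p = 0.00377), and was held. Cebpe, the C/EBP factor needed for eosinophil granules, had 73 and 89 FPKM in CD11c+ libraries against 40 and 75 FPKM in naive libraries (0.55 ± 0.39, adjusted p = 0.396).

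Genes of protein synthesis and secretion lay on the higher side. Of 28 unfolded protein response and secretory genes, 8 were called higher (median log2 change 0.96), and Xbp1, Dnajb9 and Creld2 were held. Xbp1, the transcription factor of this response, had 80 and 75 FPKM in CD11c+ papain libraries, 67 and 58 FPKM in CD11c- libraries and 18 and 26 FPKM in naive libraries (1.79 ± 0.23 against naive, adjusted p = 0.00233). Dnajb9, a chaperone partner in the endoplasmic reticulum, had 42 and 43 FPKM in CD11c+ libraries, 25 and 20 FPKM in CD11c- libraries and 10 and 12 FPKM in naive libraries (1.86 ± 0.28, adjusted p = 0.00475). Creld2, a stress-induced protein of the same compartment, had 24 and 31 FPKM in CD11c+ libraries against 8 and 7 FPKM in naive libraries (1.74 ± 0.26, adjusted p = 0.00499). The CD11c- libraries lay nearer to the CD11c+ ones for Xbp1, whose adjusted p was 0.054 when only the libraries compared were fitted. The list had 3 higher calls without CD11c+ library 2, naive library 1 or naive library 2 and 4 without CD11c+ library 1.

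Of 44 cytosolic ribosomal protein genes, 15 were called higher (median log2 change 0.75), but all 15 calls were lost without CD11c+ library 2, naive library 1 or naive library 2, and 2 genes were called after median-ratio scaling. Rpl3 had 208 and 243 FPKM in CD11c+ papain libraries, 91 and 196 FPKM in CD11c- libraries and 56 and 75 FPKM in naive libraries (1.78 ± 0.39 against naive, adjusted p = 0.0238). Of 22 glycolysis genes, 7 were called higher (median 0.61). Median-ratio scaling gave 3 higher and 3 lower calls in that list, and all calls were lost without naive library 1. Hk2, which traps glucose in the cell, had 29 FPKM in each CD11c+ library against 8 and 12 FPKM in naive libraries (1.47 ± 0.24, adjusted p = 0.00659), and 0.0581 without naive library 1. Of 34 oxidative phosphorylation genes, 4 were called higher (median 0.68), a share near the background. Uqcrb, a complex III subunit, had 171 and 172 FPKM in CD11c+ libraries, 86 and 116 FPKM in CD11c- libraries and 53 and 65 FPKM in naive libraries (1.53 ± 0.26, adjusted p = 0.00865), and 0.0745 without naive library 1. That list had no call left without naive library 1, 1 without naive library 2 and 2 without CD11c+ library 2.

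Calls among genes that remodel or repair tissue were higher, and fibroblasts and macrophages, whose marker sums moved with them, express many of these genes. Of 35 proteases, inhibitors and matrix remodelling genes, 11 were called higher (median log2 change 0.90), and Timp1, Timp2, Timp3, Mmp14 and Ctsl were held, while median-ratio scaling also gave 2 lower calls and quantile normalization 3. Timp1, an inhibitor of matrix metalloproteinases, had 207 and 165 FPKM in CD11c+ papain libraries, 75 and 65 FPKM in CD11c- libraries and 1 and 5 FPKM in naive libraries (5.75 ± 0.85 against naive, adjusted p = 0.00467). Timp3 had 38 FPKM in each CD11c+ library against 0 and 2 FPKM in naive libraries (4.49 ± 0.57, adjusted p = 0.00233), and the lysosomal protease gene Ctsl had 78 and 53 FPKM against 5 and 8 FPKM (3.15 ± 0.41, adjusted p = 0.00252). The groups were apart in all 3. When only the libraries compared were fitted, the adjusted p was 0.0507 for Timp1, 0.0681 for Timp3 and 0.0625 for Mmp14. The list had 6 to 8 higher calls without either CD11c+ library or naive library 2 and 5 higher and 1 lower without naive library 1. Of 28 repair and angiogenesis genes, 7 were called higher (median 1.4), and Ereg and Adm were held. Adm, the vessel-relaxing peptide adrenomedullin, had 12 and 14 FPKM in CD11c+ libraries and 6 FPKM in each CD11c- library and was listed at 0 in both naive libraries (adjusted p = 0.00468). Of 29 lipid mediator genes, 4 were called higher (Ptgs1, Ptgs2, Ptges and Hpgds; median 0.07), a share near the background of 9.93%, and none was held. Ptgs2, the inducible cyclooxygenase, had 149 and 114 FPKM in CD11c+ libraries against 46 and 19 FPKM in naive libraries (2.10 ± 0.48, adjusted p = 0.0261), with 0.0801 and 0.0872 without CD11c+ libraries 1 and 2 and 0.124 without naive library 2.

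The interferon, cell cycle and antigen presentation lists gave 1 higher call each, shares below the background of 9.93%. Gbp3, an interferon-induced GTPase, had 8 FPKM in each CD11c+ papain library against 2 and 4 FPKM in naive libraries and was the call among 32 interferon response genes (adjusted p = 0.0377; list median 0.59). Nusap1, a spindle protein, had 3 and 5 FPKM in CD11c+ libraries against 0 and 1 FPKM in naive libraries and was the call among 32 cell cycle genes (adjusted p = 0.0496; list median 1.27). None of these was held. Of 20 antigen presentation genes, the class II gene H2-Ob was higher, with 23 and 45 FPKM in CD11c+ libraries against 5 and 9 FPKM in naive libraries (log2 change 2.10 ± 0.58, adjusted p = 0.0491), and the class I gene H2-D1 lower, with 924 and 921 FPKM against 1846 and 1379 FPKM (-0.79 ± 0.19, adjusted p = 0.0296; list median 1.09). H2-Ob gave 0.0511 and 0.226 without CD11c+ libraries 1 and 2 and 0.255 and 0.0941 without naive libraries 1 and 2, and H2-D1 gave 0.0597, 0.109 and 0.191 without CD11c+ library 1, CD11c+ library 2 and naive library 1.

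Within papain mice the CD11c gate was followed by few calls. Of 14257 genes, 8 (0.0561%) were called between CD11c+ and CD11c- papain eosinophils, 4 higher (0.0281%; Mir139, Slc13a3, Ccdc67 and Trim6) and 4 lower (0.0281%; Gnao1, Megf11, Pkd1l2 and Syt8), and all but Mir139 stood at 3 FPKM or less in every eosinophil library. At an unadjusted p under 0.05, 1283 genes passed. None of the genes described above was among the 8. Ccl7 had 390 and 392 FPKM in CD11c+ libraries against 126 and 129 FPKM in CD11c- libraries, a log2 difference of 1.61 ± 0.43 (adjusted p = 0.405). Itga4 differed by -1.76 ± 0.51 (adjusted p = 0.465), L1cam by -1.79 ± 0.28 (adjusted p = 0.11) and Clec5a by 1.85 ± 0.38 (adjusted p = 0.319). Cd200r1, Il4ra and Socs2 were close in both gates, with differences of 0.31 ± 0.28, 0.02 ± 0.29 and 0.32 ± 0.24 (adjusted p = 0.694, 1 and 0.646). A p that misses the threshold does not show that the gates are alike at this spread. Against the same 2 naive libraries, CD11c- papain eosinophils had 267 genes called higher (1.87%) and 53 lower (0.372%). The comparisons of each gate with naive cells share their controls, so their values are set side by side without a test of likeness.

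**Figure D5:**
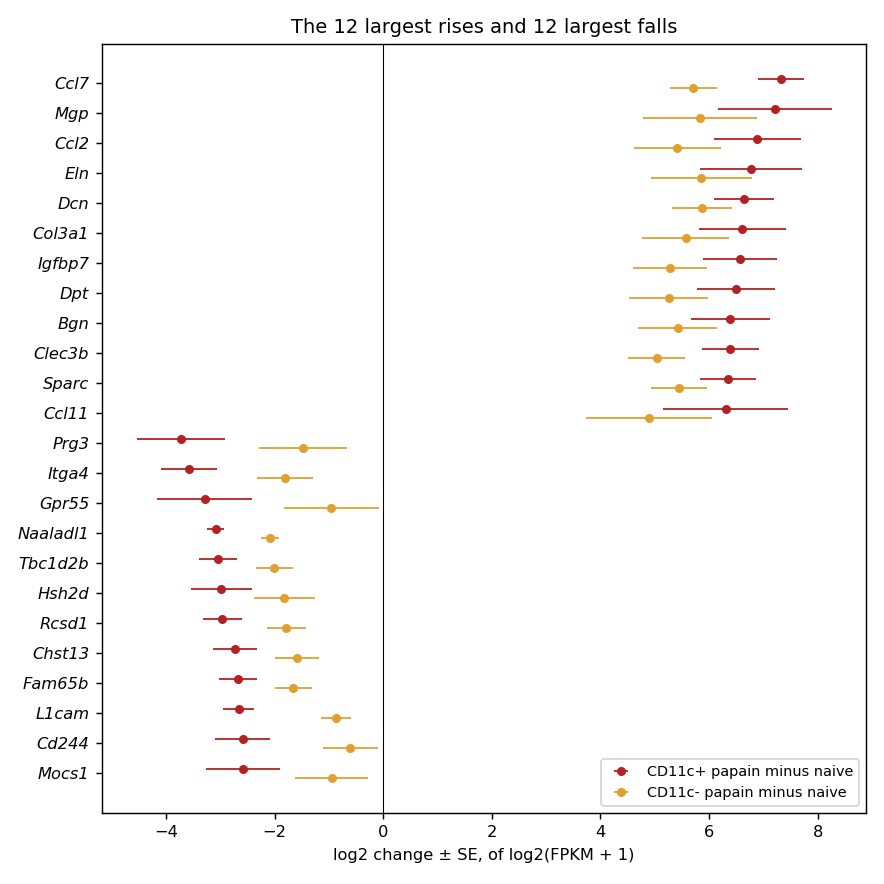
Fitted log2 change against naive eosinophils, with SE, of the 12 largest rises and 12 largest falls in CD11c+ papain eosinophils, with the same genes in CD11c- papain eosinophils beside them. Both comparisons use the same naive libraries, and changes of genes listed at 0 in naive libraries (Eln, Col3a1 and Ccl11) depend on the added constant. For Itga4 the CD11c+ value of -3.57 lies beyond the CD11c- value, and for Naaladl1 the SE is 0.16.

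The most abundant of the 8 genes that separated the gates was Mir139, a microRNA gene that lies outside the naming rule and was chosen after its values were seen. It had 705 and 11202 FPKM in CD11c+ papain libraries 1 and 2 and was listed at 0 in both CD11c- and both naive libraries and in the other 9 libraries of the series (adjusted p = 0.00683 against CD11c- and 0.000506 against naive). Small RNA genes are short, so a few reads give a high FPKM, and a library selected for poly(A) does not measure the mature microRNA. Pde2a, the phosphodiesterase gene within which Mir139 lies, had 17 and 13 FPKM in CD11c+ libraries, 20 FPKM in each CD11c- library and 35 and 23 FPKM in naive libraries (-0.89 ± 0.35 against naive, adjusted p = 0.13). The SE of Mir139 in the main fit also takes in the groups in which it was listed at 0. With only the libraries compared in the fit, the 5 calls between the gates were all lower in CD11c+ cells, so Mir139 was not called. The products of the hairpin are shown because it was the only gene above 10 FPKM called between the gates in the main fit. They are from RefSeq, on mouse chromosome 7 of GRCm38.p6, 5′ to 3′, with the seed (bases 2 to 8) in capitals.
mmu-miR-139-5p: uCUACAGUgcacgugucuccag
mmu-miR-139-3p: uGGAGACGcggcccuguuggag
Their seeds differ, so the arms belong to separate seed families.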

How the data were processed

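Poly(A) RNA of sorted lung cells was sequenced from 10 ng of isolated RNA, per the labels' protocols. The submitters' processing notes name TopHat 1.4.0, Cufflinks 1.3.0 and mm9; the annotation, filters and rounding are not given in the sources used here. The deposited table holds whole-number scores per gene symbol, read as FPKM rounded by the authors from the tool and the values, so read depth is unknown and precision comes only from the spread between libraries. Commas within numbers were stripped from 1008 cells, 3 cells next to 0 were set to 0, and 25 rows with symbols turned into dates and 494 small RNA rows were kept but passed over in naming. Genes that reached 1 FPKM in 2 libraries or more (14257 of 21110) were tested as log2(FPKM + 1) with limma 3.58.1 (R 4.3.3). A coefficient per group (8 groups, 15 libraries, 7 residual degrees of freedom) was fitted with eBayes and trend, two-sided, with Benjamini-Hochberg adjustment over the genes tested and a threshold of 0.05. The fit was tried on simulated data with the same spread for every gene and only rises in expressed genes. That trial does not cover falls or genes listed at 0. Genes were named if among the 12 largest changes each way with a group mean of 10 FPKM and no overlap, among up to 4 list members with a mean of 5 FPKM, in a short list of eosinophil genes, or in a count of 5 or fewer; other named genes serve as context and were chosen after their values were seen. Members, lists and tests were chosen with earlier results of these data known. Alternatives covered the pseudocount, filter, scaling, libraries fitted, eBayes settings, replicate block and each library left out. A few genes that the naming rule picks are not reported here.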

Additional observations from a re-analysis of the deposited data

Results flagged for a closer look

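The 8 genes called between the 2 CD11c gates of papain eosinophils are a difference between groups under the same treatment. As CD11c+ minus CD11c- differences of log2(FPKM + 1), Mir139 stood at 11.46, Slc13a3 at 1.79 and Ccdc67 and Trim6 at 1.0 each, while Gnao1, Megf11, Pkd1l2 and Syt8 stood at -1.0 each. Slc13a3, a sodium-coupled dicarboxylate transporter gene, had 2 and 3 FPKM in CD11c+ libraries and was listed at 0 in CD11c- libraries, and the other 6 low genes stood at 1 FPKM in both libraries of one gate and at 0 in the other. Mir139 had 705 and 11202 FPKM in CD11c+ libraries and was listed at 0 in both CD11c- libraries. In rounded FPKM both libraries of a group can hold the same whole number, and the spread seen by the fit is then small. Differences from a listing at 0 depend on the added constant and are no folds.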

How the results depend on the processing

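The count of 1730 genes called between CD11c+ papain and naive eosinophils stayed within 1.5 times of that in every other setting that kept the 15 libraries, but was 1038 with only the 4 compared libraries fitted, and leaving out 1 library gave 371 to 2070. The 8 calls between CD11c+ and CD11c- papain eosinophils became 14 and 3 with pseudocounts of 0.5 and 5, 13 with no filter, 1 with a filter of 5 FPKM, 1 after median-ratio scaling, 1 after quantile normalization, 118 with only the 6 eosinophil libraries, 5 with only the libraries compared, 2 without the trend and 1 with robust eBayes. With small RNA genes left out, limma called 0 genes between the gates. Leaving out 1 library gave 2 to 498 calls between the gates, the highest without CD11c+ library 1. The 320 calls of CD11c- papain against naive eosinophils became 184 with a pseudocount of 5, 1114 with only the libraries compared and 44 to 366 with 1 library left out. The cause of these moves was not tested, beyond the fewer libraries in the fits that left some out. No named gene reversed its direction past the threshold in any setting tried. Same-numbered libraries did not deviate together (correlations of 0.035 between CD11c+ and naive, 0.062 between CD11c+ and CD11c- and 0.001 between CD11c- and naive libraries), so the labels' numbers were not taken as pairs; with the replicate number as a block, 1372, 2 and 231 genes were called in the 3 comparisons. Where an arm kept 1 library, its spread was assumed to be that of the other groups. Rounding to whole FPKM limits low genes.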

Other observations

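Genes outside the lists above, chosen after their values were seen from the calls that held without each compared library, included 4 enzymes of hyaluronan synthesis. Gfpt2, which feeds glucose into amino sugars, had 90 and 110 FPKM in CD11c+ papain libraries, 52 and 39 FPKM in CD11c- papain libraries and 0 and 1 FPKM in naive libraries (log2 change 6.15 ± 0.31 against naive, adjusted p = 6.93e-05). Ugdh, which makes UDP-glucuronic acid, had 143 and 125 FPKM in CD11c+ libraries against 5 and 8 FPKM in naive libraries (4.20 ± 0.31, adjusted p = 0.000485). The hyaluronan synthase gene Has1 had 85 and 68 FPKM against 0 and 1 FPKM (5.77 ± 0.53, adjusted p = 0.000743), and Uap1, which makes UDP-N-acetylglucosamine, had 89 and 95 FPKM against 27 and 31 FPKM (1.63 ± 0.20, adjusted p = 0.002). In all 4 the CD11c- libraries lay between the other groups. C3, a complement component, had 160 and 135 FPKM in CD11c+ libraries against 7 FPKM in each naive library (4.21 ± 0.56, adjusted p = 0.00268), and the C1 inhibitor gene Serping1 had 122 and 68 FPKM against 1 FPKM in each naive library (5.53 ± 0.56, adjusted p = 0.00108). The fibroblast marker sums moved with these genes, and their part was not tested.

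Among the held falls were neighbouring genes of the class III region of the major histocompatibility complex, by the RefSeq annotation of GRCm38.p6. Stk19 had 80 and 98 FPKM in CD11c+ papain libraries, 210 and 124 FPKM in CD11c- libraries and 615 and 292 FPKM in naive libraries (log2 change -2.25 ± 0.37 against naive, adjusted p = 0.00725). Its neighbour Dom3z, a decapping exonuclease gene, had 60 and 42 FPKM in CD11c+ libraries, 189 and 108 FPKM in CD11c- libraries and 374 and 196 FPKM in naive libraries (-2.41 ± 0.36, adjusted p = 0.00462). When only the 6 eosinophil libraries were fitted, the adjusted p was 0.0615 for Stk19 and 0.0529 for Dom3z, and it was 0.0995 and 0.0891 when only the libraries compared were. Both were highest in naive library 1 and lowest in the CD11c+ libraries. Cyp21a1 and Zbtb12 of the same region stood at 0 or 1 FPKM in CD11c+ libraries against 5 to 8 FPKM in naive libraries, with an adjusted p of 0.0993 for Cyp21a1 when only the libraries compared were fitted. C2, a complement gene there, went the other way, with 9 and 10 FPKM in CD11c+ libraries and a listing at 0 in both naive libraries (adjusted p = 0.00263). These genes lie close together, and reads that neighbours share cannot be told apart here.

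Other abundant held falls were Lcp1, an actin bundler of leukocytes, with 395 and 352 FPKM in CD11c+ papain libraries against 792 and 939 FPKM in naive libraries (log2 change -1.21 ± 0.18, adjusted p = 0.00507), and the adhesion receptor Cd97, with 123 and 108 FPKM against 540 and 483 FPKM (-2.14 ± 0.23, adjusted p = 0.00135). Taldo1, an enzyme of the pentose phosphate pathway, had 254 and 248 FPKM in CD11c+ libraries against 924 and 725 FPKM in naive libraries (-1.70 ± 0.23, adjusted p = 0.00275). The CD11c- libraries lay between the other groups for Cd97 and Taldo1.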
